A study of Homo sapiens with 6 samples.

Results

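The silencing machinery described here comprised 10 genes that act with KRAB zinc finger proteins or repress retroelements, namely *TRIM28* (which encodes KAP1), *SETDB1*, *ATF7IP*, *MORC2*, *MPHOSPH8*, *PPHLN1*, *CBX1*, *CBX3*, *CBX5* and *ATRX*. The genes were listed by function and not by their values, though with earlier results of these data known. All 10 were found among the 62710 genes of the deposited table, and all 10 passed the filter on low values (a mean of 10 or more) that left 16347 genes for testing. The samples were H526 cells, an established human small cell lung cancer line, in 3 libraries of parental cells (1, 2 and 3) and 3 libraries of onvansertib-resistant cells (7, 8 and 9). Onvansertib inhibits the mitotic kinase PLK1. The resistant cells came from the same line and were selected in onvansertib raised from 10 to 75 nM, whereas no drug is named for the parental cells. The resistant group is a single selected line, and for both groups RNA was taken on 3 separate occasions, so the p-values measure the spread between these harvests and not between independently selected lines.

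KRAB zinc finger proteins are a large family of DNA-binding repressors, many of which recognize retroelements. Their KRAB domain recruits KAP1, a scaffold that brings in SETDB1, the methyltransferase that trimethylates histone H3 at lysine 9 (H3K9), and ATF7IP, which stabilizes SETDB1 in the nucleus. The mark is bound by the HP1 proteins encoded by *CBX5* (HP1 alpha), *CBX1* (HP1 beta) and *CBX3* (HP1 gamma). The HUSH complex, which holds MPP8 (*MPHOSPH8*), periphilin (*PPHLN1*) and TASOR, also silences retroelements and long foreign transcripts with SETDB1 and with the ATPase MORC2. ATRX, a chromatin remodeler, deposits histone H3.3 at repeats together with its partner DAXX.

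Values are DESeq2-normalized signals per gene and library, in which 3 reads correspond to between 2.67 and 3.22. Library depth, estimated from the summed values and the step between low values, was between about 25708710 and 28512571 reads in parental cells. In resistant cells it was between about 22358897 and 23265065 reads. Every member was far above this limit of detection: the lowest value of any member in any library corresponded to about 1602 reads, and the member with the lowest mean, *PPHLN1*, stood at percentile 77.7 of the tested genes. Of 11 small cell lung cancer markers, 9 were above 10 in at least 1 library, and *POU2F3*, the transcription factor of the tuft cell-like subtype, was at 25809 ± 1178 (SD, n = 3) in parental and 27273 ± 535 (SD, n = 3) in resistant cells. Of the 9 that were tested, 7 fell and 1 rose, with a median log2 fold change of -0.61. The summed value of these markers was between 78247 and 83004 in parental and between 58409 and 59951 in resistant libraries. Of 8 markers of leukocytes, fibroblasts and endothelium, 3 were above 10 (*COL1A1*, *COL1A2* and *VWF*), all 3 of which rose (log2 fold changes of 0.77 to 2.20), and *CD3E* was listed at 0 in every library. Their summed value was between 370 and 517 in parental and between 818 and 1037 in resistant libraries, and its part in the results below was not tested. In RNA from bulk cultures, fewer cells of a type and less RNA per cell cannot be told apart.

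The comparison asked whether the silencing genes differed in level between resistant and parental cells. *MPHOSPH8* and *ATRX* rose in resistant cells, each by a fold of 1.34, and *CBX5* and *CBX3* fell, to folds of 0.77 and 0.83. The call of *MPHOSPH8* held under all 14 alternatives tried, whereas *CBX5* turned to a log2 fold change of 0.10 and *ATRX* lost its call after centring on chromosomal neighbours, and *CBX3* lost its call under 4 alternatives. The other 6 genes, which include the core *TRIM28*, *SETDB1* and *ATF7IP*, did not pass the threshold. Thus 4 of 10 members were called, 2 in each direction, at a Benjamini-Hochberg adjusted p under 0.05 with limma on log2(value + 1). Over all tested genes 37.7% were called, 17.8% higher and 19.8% lower in resistant cells, so that the share of members called was close to the background. The members' median log2 fold change was -0.03 against -0.00086 over all tested genes, and their median absolute log2 fold change was 0.16 against 0.30. The groups did not overlap for 5 members, *TRIM28*, *MPHOSPH8*, *CBX3*, *CBX5* and *ATRX*, beside 49.9% of all tested genes. With 3 libraries in each group the exact permutation test cannot give a p below 0.10, the value it gave for these 5 genes.

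**Figure D1:**
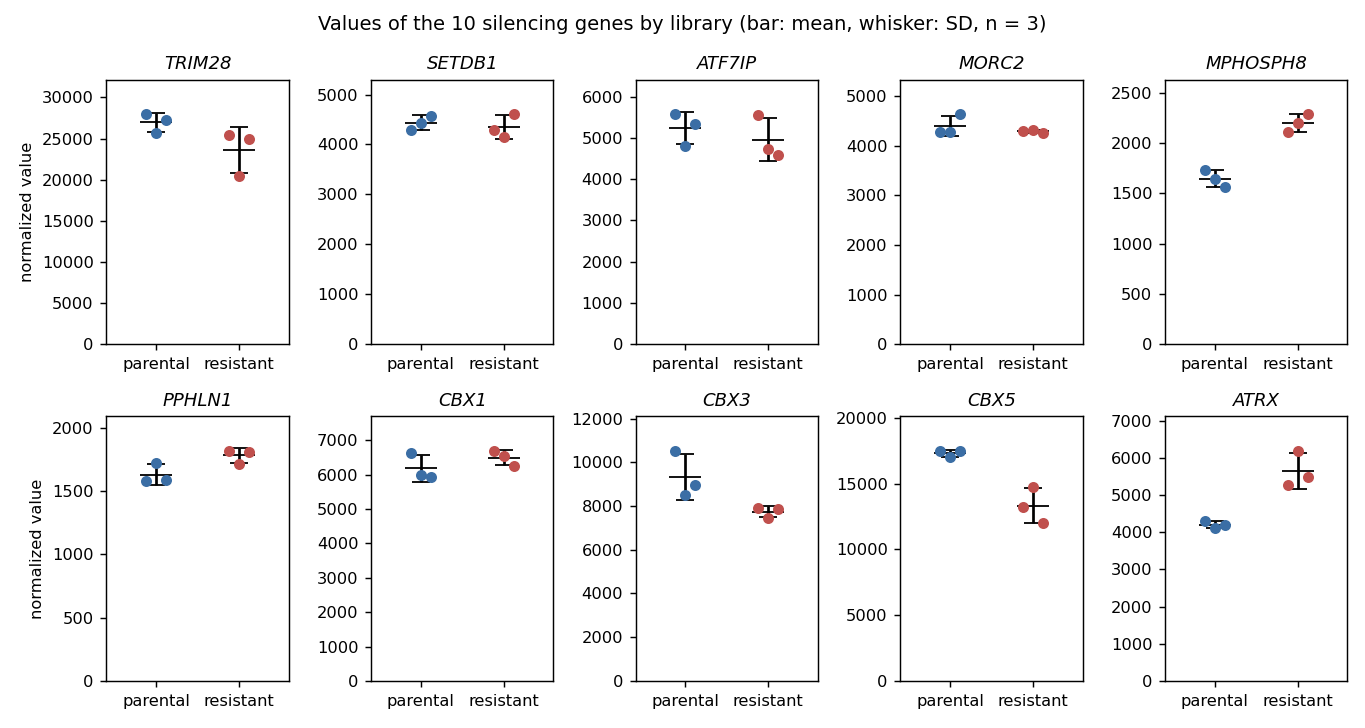
Normalized values of the 10 silencing genes by library, with parental libraries in blue and resistant libraries in red, 1 panel per gene, each with its own axis from 0, a bar at the mean and whiskers of 1 SD (n = 3). The resistant values of *MPHOSPH8* and *ATRX* lie above all parental values and those of *CBX3* and *CBX5* lie below them, whereas the groups overlap for *SETDB1*, *ATF7IP*, *MORC2*, *PPHLN1* and *CBX1*.

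The 3 promoters below are shown because the genes they serve were called and had a promoter window. RefSeq windows of 300 bases, from 250 before to 50 after a gene's start on GRCh38.p14, were found for 8 of the 10 members. *TRIM28* and *ATRX* were not matched. They are written 5′ to 3′ on the strand of the gene, with capitals on matches, on either strand, to the letters of NRF1, Sp1 (GGGCGG), NF-Y (CCAAT), ETS (CCGGAAG) and the E-box (CACGTG).
*CBX5*, chr12:54280073-54280372, minus strand: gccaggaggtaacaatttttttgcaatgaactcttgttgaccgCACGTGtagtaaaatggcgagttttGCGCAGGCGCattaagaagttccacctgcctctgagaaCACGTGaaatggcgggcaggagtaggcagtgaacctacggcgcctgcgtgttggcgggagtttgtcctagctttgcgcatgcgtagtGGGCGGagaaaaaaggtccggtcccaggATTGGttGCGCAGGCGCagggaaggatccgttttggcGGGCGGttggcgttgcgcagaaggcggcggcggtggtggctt
*CBX3*, chr7:26201193-26201492, plus strand: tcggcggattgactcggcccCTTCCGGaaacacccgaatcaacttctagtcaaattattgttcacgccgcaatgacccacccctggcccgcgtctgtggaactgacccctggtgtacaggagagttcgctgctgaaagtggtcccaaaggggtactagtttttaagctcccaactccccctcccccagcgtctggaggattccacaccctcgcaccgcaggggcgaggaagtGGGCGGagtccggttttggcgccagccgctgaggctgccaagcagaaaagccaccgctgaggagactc
*MPHOSPH8*, chr13:19633409-19633708, plus strand: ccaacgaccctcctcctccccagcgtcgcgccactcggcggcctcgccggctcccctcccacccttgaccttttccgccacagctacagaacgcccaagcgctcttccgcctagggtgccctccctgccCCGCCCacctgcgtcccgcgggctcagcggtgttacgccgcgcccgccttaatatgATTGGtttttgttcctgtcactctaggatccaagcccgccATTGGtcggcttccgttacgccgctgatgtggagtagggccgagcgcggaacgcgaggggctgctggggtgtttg
All 3 windows were rich in CpG, with 25 in *CBX5*, 19 in *CBX3* and 31 in *MPHOSPH8*, against a median of 14 over 34943 RefSeq windows. This does not set the called genes apart. The windows of members that were not called held 38 in *CBX1*, 35 in *MORC2*, 31 in *PPHLN1*, 24 in *ATF7IP* and 22 in *SETDB1*. The *CBX5* window held 2 NRF1 matches, and 5.74% of all windows held at least 1. It also held 2 E-box matches, found in 7.23% of all windows, 2 Sp1 matches, found in 44.9%, and 1 NF-Y match, found in 34.6%. In the *MPHOSPH8* window there were 2 NF-Y matches and 1 Sp1 match. The *CBX3* window, whose start lies 302 bases from that of the canonical transcript, held 1 Sp1 match and 1 ETS match, and 10.2% of all windows held the ETS letters. A match describes these letters and is no evidence of binding.

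The scaffold of the pathway, *TRIM28* (ENSG00000130726.12, chr19:58544064-58550722, plus strand, 17 exons), was among the most abundant genes of the table. Its values were 27963, 25714 and 27312 in parental libraries 1, 2 and 3 and 25490, 20425 and 24904 in resistant libraries 7, 8 and 9. The groups did not overlap, but the lowest parental and the highest resistant library were close, and resistant library 8 was lower than the other 5. The mean was 26996 ± 1158 (SD, n = 3) in parental and 23606 ± 2771 (SD, n = 3) in resistant cells. The log2 fold change was -0.20 (SE 0.08, 95% confidence interval -0.39 to -0.01), with an adjusted p of 0.0897 and an unadjusted p of 0.0402 in limma, so it did not pass the threshold. Without resistant library 8 the log2 fold change was -0.10. The tested genes whose centred log2 values over the 6 libraries were most like those of *TRIM28* were *ZNF383*, *ATXN7L2* and *MOB2*, with root mean square differences of 0.0287, 0.0318 and 0.0350, against a median of 0.27 over 16346 genes. They were picked for these small differences, so their place below the median was set by the choice. Whether they share control with *TRIM28* was not tested.

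Next to *TRIM28* at the end of chromosome 19, *CHMP2A*, a subunit of the ESCRT-III membrane-remodeling complex, fell from 1437 ± 30.6 to 1000.2 ± 27.2 (SD, n = 3 each), with a log2 fold change of -0.52 (SE 0.07, adjusted p = 0.000344 with limma). *UBE2M*, the NEDD8-conjugating enzyme, fell from 4072 ± 155 to 2767 ± 59.1 (SD, n = 3 each), with a log2 fold change of -0.56 (SE 0.06, adjusted p = 8.73e-05 with limma). Past *UBE2M*, the antisense gene *MZF1-AS1*, whose reads may not be separable from those of *MZF1*, rose from 33.9 ± 5.91 to 62.2 ± 18.5 (SD, n = 3 each; log2 fold change 0.83, adjusted p = 0.045 with limma). On the other side of *TRIM28*, *ZBTB45* was at 748 ± 68.3 and 817 ± 31.1 (SD, n = 3 each) and did not pass the threshold, and the gene past it, *SLC27A5*, fell from 183 ± 11.8 to 116 ± 5.68 (SD, n = 3 each; log2 fold change -0.66, adjusted p = 0.0074 with limma). These neighbours were named after their values were seen.

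*SETDB1* (ENSG00000143379.13, chr1:150926263-150964744, plus strand), the H3K9 methyltransferase recruited by KAP1, was at 4286, 4436 and 4579 in parental and at 4285, 4147 and 4606 in resistant libraries. The groups overlapped across nearly their whole range. The log2 fold change was -0.03 (SE 0.06, 95% confidence interval -0.17 to 0.11, adjusted p = 0.75 with limma). *ATF7IP* (ENSG00000171681.13, chr12:14365676-14502931, plus strand), the partner of SETDB1, was at 5576, 4802 and 5340 in parental and at 5556, 4732 and 4593 in resistant libraries. Its groups overlapped as well, since resistant library 7 was above parental libraries 2 and 3. The log2 fold change was -0.08 (SE 0.09, 95% confidence interval -0.27 to 0.11, adjusted p = 0.491 with limma). The ratio of *SETDB1* to *ATF7IP* per kb of transcript was 1.70 ± 0.155 in parental and 1.76 ± 0.232 in resistant cells (SD, n = 3 each, exact permutation p = 0.70), and that of *TRIM28* to *SETDB1* was 8.0 ± 0.50 and 7.13 ± 0.673 (SD, n = 3 each, exact permutation p = 0.20).

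Among the HUSH subunits, *MPHOSPH8* (ENSG00000196199.14, chr13:19633659-19673441, plus strand), whose product MPP8 binds methylated H3K9 through its chromodomain, was at 1731, 1643 and 1567 in parental and at 2113, 2204 and 2287 in resistant libraries. All resistant libraries were above all parental ones, and the spread within either group was small beside the gap. The mean rose from 1647 ± 82.0 to 2201 ± 87.1 (SD, n = 3 each), a log2 fold change of 0.42 (SE 0.07, 95% confidence interval 0.26 to 0.58, adjusted p = 0.00121 with limma). *PPHLN1* (ENSG00000134283.18, chr12:42238447-42459715, plus strand), which encodes the RNA-binding subunit periphilin, was at 1580, 1722 and 1590 in parental and at 1817, 1716 and 1811 in resistant libraries. Only resistant library 8 reached into the parental range. The log2 fold change of *PPHLN1* was 0.13 (SE 0.07, 95% confidence interval -0.03 to 0.29, adjusted p = 0.183 with limma). The third subunit, *TASOR*, which is no member of the list, was at 1761 ± 166 and 1690 ± 124 (SD, n = 3 each) and did not pass the threshold (log2 fold change -0.06, adjusted p = 0.642 with limma). Per kb of transcript, the ratio of *MPHOSPH8* to *PPHLN1* was 0.44 ± 0.033 in parental and 0.54 ± 0.028 in resistant cells, and the ratio of *MPHOSPH8* to *TASOR* was 1.82 ± 0.249 and 2.52 ± 0.0896 (SD, n = 3 each). The levels of the first ratio rest on the canonical *PPHLN1* transcript of 1859 bases and would be higher with the longest, of 5975 bases, whereas their proportion between the groups does not depend on it. Neither ratio overlapped between the groups, which gives an exact permutation p of 0.10 for each, the smallest possible.

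*MORC2* (ENSG00000133422.14, chr22:30925130-30968774, minus strand), the ATPase that compacts chromatin at HUSH targets, was at 4276, 4285 and 4635 in parental and at 4303, 4310 and 4254 in resistant libraries. The resistant libraries lay close to parental libraries 1 and 2, and parental library 3 was the highest of the 6. The log2 fold change was -0.04 (SE 0.06, 95% confidence interval -0.17 to 0.10, adjusted p = 0.681 with limma). *TUG1*, a mostly noncoding gene that starts 491 bases from *MORC2* on the opposite strand, rose from 8126 ± 235 to 10377 ± 295 (SD, n = 3 each; log2 fold change 0.35, SE 0.06, adjusted p = 0.000823 with limma). The members of this head-to-head pair were therefore called differently, although the difference between them was not tested.

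All 3 HP1 genes were highly abundant. *CBX5* (ENSG00000094916.16, chr12:54230942-54280133, minus strand), which encodes HP1 alpha, the form most concentrated in constitutive heterochromatin, was at 17493, 17010 and 17462 in parental and at 13213, 14731 and 12040 in resistant libraries. The parental libraries lay close together and well above the more spread resistant ones. The mean fell from 17322 ± 270 to 13328 ± 1349 (SD, n = 3 each), with a log2 fold change of -0.38 (SE 0.07, 95% confidence interval -0.55 to -0.22, adjusted p = 0.00263 with limma). After local median centring, described below, it was 0.10 (adjusted p = 0.306 with limma). *CBX3* (ENSG00000122565.19, chr7:26201162-26213607, plus strand), which encodes HP1 gamma, a form also found along transcribed genes, was at 10518, 8501 and 8976 in parental and at 7909, 7445 and 7847 in resistant libraries. Parental library 1 was the highest, and the lowest parental library was still above the highest resistant one. The mean fell from 9332 ± 1054 to 7734 ± 251 (SD, n = 3 each), with a log2 fold change of -0.27 (SE 0.08, 95% confidence interval -0.44 to -0.09, adjusted p = 0.0246 with limma). The call of *CBX3* was lost without parental library 1 (log2 fold change -0.18, adjusted p = 0.0515 with limma) and without resistant library 8 (-0.24, adjusted p = 0.0814 with limma). *CBX1* (ENSG00000108468.15, chr17:48070052-48101478, minus strand), which encodes HP1 beta, was at 6618, 5999.9 and 5923 in parental and at 6689, 6554 and 6249 in resistant libraries. Its groups overlapped because parental library 1 was nearly as high as the highest resistant library, and the log2 fold change was 0.07 (SE 0.06, 95% confidence interval -0.07 to 0.22, adjusted p = 0.404 with limma).

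The HP1 genes were compared with each other per kb of canonical transcript, as the share of each in their summed level. *CBX3* was the largest part in both groups, at 51.0% ± 1.75 in parental and 47.6% ± 1.79 in resistant cells (SD, n = 3 each), and its lowest parental and highest resistant library nearly met at 49.4%. *CBX1* made up 32.0% ± 0.821 in parental and 37.8% ± 0.551 in resistant cells (SD, n = 3 each), and all resistant libraries were above all parental ones. *CBX5* made up 17.0% ± 1.12 and 14.6% ± 1.37 (SD, n = 3 each), with overlapping groups. The exact two-sided permutation p was 0.10 for *CBX1* and *CBX3* and 0.20 for *CBX5*, with Benjamini-Hochberg values over the 3 shares of 0.15, 0.15 and 0.20, so no share passed 0.05, which this design cannot reach. The summed level per kb was 8860 ± 695 in parental and 7884 ± 167 in resistant cells (SD, n = 3 each, exact permutation p = 0.10). The order of the shares rests on the long canonical *CBX5* transcript of 11546 bases. Without correction for length *CBX5* was the largest part, at 52.8% in parental and 48.3% in resistant cells, against 28.4% and 28.1% for *CBX3*. In that case the shares of *CBX1*, *CBX3* and *CBX5* differed by 4.77, -0.24 and -4.54 percentage points between resistant and parental cells, against 5.76, -3.41 and -2.35 with it, so the lower share of *CBX3* was mostly absent without the correction.

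**Figure D2:**
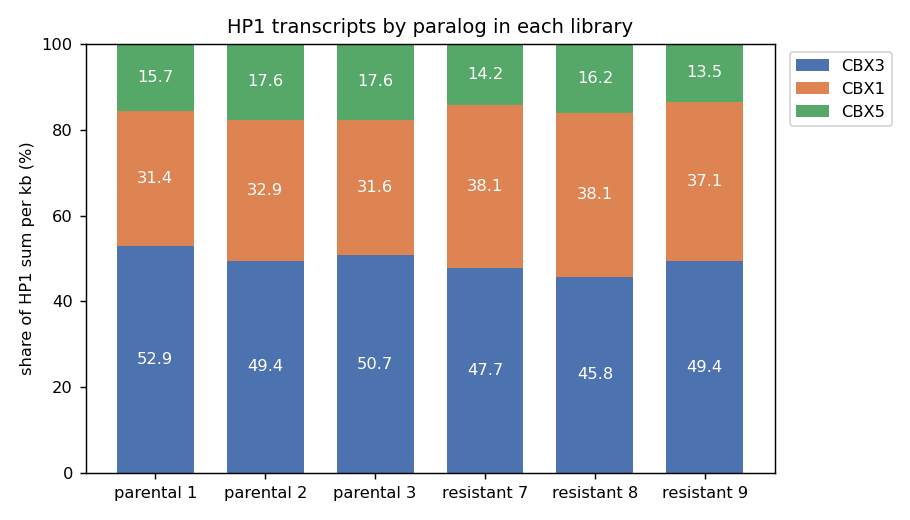
Share of *CBX1*, *CBX3* and *CBX5* in their summed value per kb of transcript, in percent, as 1 stacked bar per library, with the share printed in each segment. *CBX3* holds the largest share in every library, and the *CBX1* share is higher in all resistant libraries than in any parental library.

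Processed copies of a gene can share its reads. Of 16 annotated copies named after a member, 4 had a value above 0 in some library and 1 reached 10. *CBX3P2*, on chromosome 18, was at 1.78, 0.645 and 0.654 in parental and at 25.2, 6.02 and 12.5 in resistant libraries, far below *CBX3* itself, and adding the copies left the *CBX3* share at 51.0% and 47.7%.

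The chromatin remodeler *ATRX* (ENSG00000085224.23, chrX:77504880-77786233, minus strand, 35 exons) was at 4303, 4121 and 4190 in parental and at 5266, 6192 and 5493 in resistant libraries. Every resistant library was above every parental one. The mean rose from 4205 ± 91.6 to 5650 ± 483 (SD, n = 3 each), with a log2 fold change of 0.42 (SE 0.07, 95% confidence interval 0.27 to 0.58, adjusted p = 0.00113 with limma). Local median centring left it at 0.21 (adjusted p = 0.0606 with limma). Its partner *DAXX*, the H3.3 chaperone, was at 4375 ± 101 and 3954 ± 206 (SD, n = 3 each) and did not pass the threshold (log2 fold change -0.15, adjusted p = 0.0925 with limma). The ratio of *ATRX* to *DAXX* per kb was 0.22 ± 0.00958 in parental and 0.33 ± 0.0463 in resistant cells (SD, n = 3 each, exact permutation p = 0.10).

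**Figure D3:**
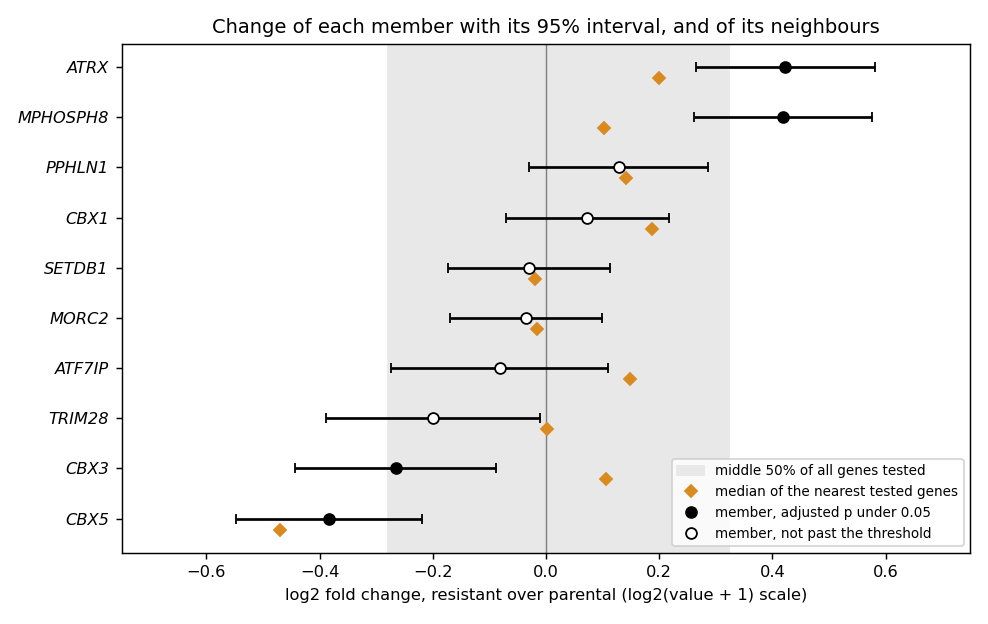
Log2 fold change of the 10 silencing genes, resistant over parental, on the log2(value + 1) scale, with 95% confidence intervals from limma, beside the median of each gene's neighbours on the chromosome (diamonds). Filled circles passed the threshold, and the grey band holds the middle 50% of all tested genes. The intervals of *MPHOSPH8* and *ATRX* lie above 0 and those of *CBX5*, *CBX3* and *TRIM28* below it, and the neighbours of *CBX5* have a median of -0.47.

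In level per kb of canonical transcript, the members covered a wide range. *TRIM28* was the highest at 8025 ± 344 in parental and 7017 ± 824 in resistant cells (SD, n = 3 each), followed by *CBX3* at 4528 and 3752, *CBX1* at 2832 and 2978 and *CBX5* at 1500.2 and 1154 (means). Below them came *SETDB1* at 1004 and 984, *PPHLN1* at 877 and 958, *MORC2* at 778 and 758 and *ATF7IP* at 594 and 562. The lowest were *MPHOSPH8* at 388 and 519 and *ATRX* at 377 and 506. The order of the means was the same in both groups. The libraries of neighbours in this order overlapped for *MPHOSPH8* and *ATRX* in both groups, and for *SETDB1* and *PPHLN1* and for *ATF7IP* and *MPHOSPH8* in resistant cells. The place of *PPHLN1* depends on the transcript chosen, since its canonical transcript has 1859 bases and its longest has 5975.

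**Figure D4:**
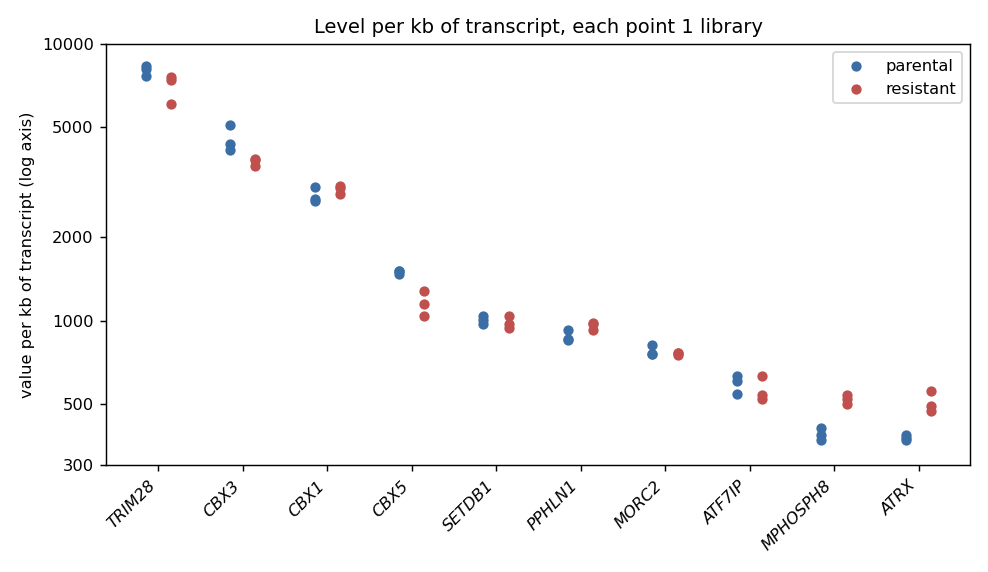
Value per kb of canonical transcript of the 10 silencing genes on a log axis, with 1 point per library in blue for parental and red for resistant cells. *TRIM28* lies highest, near 8025 in parental cells, and *ATRX* and *MPHOSPH8* lowest, with overlapping parental values near 377 and 388.

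Since earlier results of these data had shown stretches of chromosomes shifted together, each member was set beside its 50 nearest tested genes on the chromosome. The neighbours of *CBX5* had a median log2 fold change of -0.47, and 26 of the 50 were called, all lower in resistant cells, so that *CBX5* itself was 0.09 above its neighbours. *HNRNPA1*, which encodes an RNA-binding splicing factor and starts 604 bases from *CBX5* on the opposite strand, fell from 27227 ± 2732 to 21138 ± 501 (SD, n = 3 each; log2 fold change -0.36, SE 0.07, adjusted p = 0.00355 with limma). *ATRX* had neighbours with a median of 0.20 and was 0.22 above them. *MPHOSPH8*, near the end of the assembled chromosome 13 with 25 neighbours on 1 side, was 0.32 above a median of 0.10. With a window of 20 genes, which held 10 neighbours, *MPHOSPH8* was 0.12 above a median of 0.29. *CBX3* differed by -0.37 from a median of 0.11. *HNRNPA2B1*, which starts 999 bases from *CBX3* on the opposite strand, was at 34594 ± 2610 and 32269 ± 764 (SD, n = 3 each) and did not pass the threshold (log2 fold change -0.10, adjusted p = 0.271 with limma). After local median centring, which subtracts the shift of these neighbours in each library and left 30.9% of all tested genes called, *MPHOSPH8* (log2 fold change 0.29, adjusted p = 0.0159 with limma) and *CBX3* (-0.41, adjusted p = 0.00521 with limma) were still called, and *CBX5* and *ATRX* were not. Number of gene copies was not measured here.

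The neighbours of the other members had medians of 0.19 for *CBX1*, 0.15 for *ATF7IP*, 0.14 for *PPHLN1*, -0.02 for *SETDB1* and *MORC2* and 0.0013 for *TRIM28*, which had 31 neighbours. *PPHLN1*, *SETDB1* and *MORC2* were within 0.02 of their neighbours in these windows. For *TRIM28* and *MORC2* the result depended on the window. The difference of *TRIM28* from its neighbours was -0.20 with a window of 50 (31 neighbours) and 0.0059 with a window of 20 (16 neighbours). That of *MORC2* was -0.02 with 50 and -0.20 with 20. *ZCRB1*, which starts 73 bases from *PPHLN1* on the opposite strand, was at 939 ± 38.7 and 910 ± 62.9 (SD, n = 3 each) and did not pass the threshold. The head-to-head neighbour of *TRIM28*, *RN7SL525P*, was listed at 0 in every library.

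Beyond the 10 members, 8 lists of related machinery held 91 genes, of which 90 were tested, 15 rose and 13 fell. This is 31.1% called, beside 37.7% of all tested genes, with a median log2 fold change of -0.05. The lists were written with earlier results of these data known. Among 10 other HUSH and MORC genes, 2 rose and 2 fell, which is 40% called. *MORC3*, a MORC ATPase of nuclear bodies on chromosome 21, rose from 728 ± 37.5 to 2070.3 ± 77.1 (SD, n = 3 each; log2 fold change 1.51, SE 0.08, adjusted p = 8.27e-07 with limma), in a stretch where 49 of its 50 nearest tested genes were higher, with a median of 0.93. *MORC1*, normally a germline gene, rose from 10.4 ± 5.48 to 40.2 ± 1.93 (log2 fold change 1.98), and *ZNF638*, which recruits HUSH to unintegrated retroviral DNA, fell from 3369 ± 370 to 2601 ± 84.6 (log2 fold change -0.37; SD, n = 3 each).

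Of 9 tested genes listed as H3K9 methyltransferases, their cofactors or their relatives, none rose and 2 fell at the threshold of limma. This is 22.2% called, beside 37.7% of all tested genes. *SUV39H1* (log2 fold change -0.29), which methylates pericentric heterochromatin, fell. *SETMAR* (-0.38), a methyltransferase fused to a transposase, also fell, and it is not an established H3K9 methyltransferase. At an unadjusted p under 0.05 the counts of the 9 genes were 0 higher and 3 lower, beside 22.8% and 24.3% of all tested genes. *EHMT2*, the H3K9 dimethyltransferase G9a, was at 6746 ± 197 and 6119 ± 232 (SD, n = 3 each) and did not pass the threshold. Of 11 genes listed as H3K9 demethylases, 3 rose and 1 fell, which is 36.4% called, beside 37.7% of all tested genes. Whether each has this activity in these cells was not tested. *PHF2* (0.30) and *JMJD1C* (0.37) rose, and *KDM1A* (-0.18), the LSD1 demethylase, fell. Of 13 subunits of NuRD, the remodeling and deacetylase complex that KAP1 can recruit, 3 rose and 1 fell, which is 30.8% called. *HDAC1*, a deacetylase of the complex, fell from 6074 ± 262 to 4667 ± 306 (SD, n = 3 each; log2 fold change -0.38, SE 0.07, adjusted p = 0.00165 with limma), whereas *GATAD2B* (0.36) and *MBD2* (0.38) rose. *HDAC2*, also a deacetylase of NuRD, was at 7876 ± 647 and 7600 ± 593 (SD, n = 3 each). It did not pass the threshold (log2 fold change -0.05, adjusted p = 0.646 with limma).

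KAP1 acts through sumoylation and belongs to the TIF1 family, and of 18 genes of this list 5 rose and 2 fell. This is 38.9% called, beside 37.7% of all tested genes. *SUMO3*, a SUMO modifier on chromosome 21, rose from 4440 ± 122 to 10532 ± 584 (SD, n = 3 each; log2 fold change 1.24, SE 0.06, adjusted p = 6.94e-07 with limma). Of its 50 nearest tested genes 49 were higher, and their median of 1.26 was close to its own change. *TRIM24*, a TIF1 relative of *TRIM28*, fell from 3546 ± 222 to 2542 ± 68.4 (SD, n = 3 each; log2 fold change -0.48). Of 10 genes of the H3.3 pathway around *ATRX*, none rose and 2 fell at the threshold of limma, the histone gene *H3-3B* (-0.30) and the chaperone gene *HIRA* (-0.28). This is 20% called, beside 37.7% of all tested genes. At an unadjusted p under 0.05 the counts of this list were 0 higher and 5 lower, beside 22.8% and 24.3% of all tested genes. The counts at that p were 3 and 2 for the demethylases, 4 and 2 for NuRD and 5 and 4 for the TIF1 and SUMO list. They were 2 and 2 for the other HUSH and MORC genes and 3 and 3 for the HP1 partners described next. *H3-3A* was at 9805 ± 712 and 8649 ± 112 (SD, n = 3 each) and did not pass the threshold.

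Of 15 genes of HP1 partners and heterochromatin factors, 2 rose and 2 fell, which is 26.7% called, beside 37.7% of all tested genes. *CHAF1B*, a subunit of the histone chaperone CAF-1 on chromosome 21, rose from 1772 ± 90.2 to 3624 ± 217 (SD, n = 3 each; log2 fold change 1.03, SE 0.07, adjusted p = 5.3e-06 with limma), beside a median of 0.91 over its 50 nearest tested genes, 49 of which were higher. *BAZ1B*, a subunit of the WICH remodeler, fell from 7553 ± 502 to 4863 ± 271 (log2 fold change -0.63), and *LBR*, the lamin B receptor that binds HP1, fell from 5059 ± 259 to 3776 ± 220 (log2 fold change -0.42; SD, n = 3 each). The Polycomb *CBX* genes encode chromodomain proteins that read another histone mark and served as relatives outside the H3K9 pathway. Of these 5 genes, none rose and 1 fell at the threshold of limma, with a median log2 fold change of -0.12 and the same counts at an unadjusted p under 0.05. This is 20% called.

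Genes were also described in 2 further groups, those derived from retroelements and those for zinc finger proteins. Whether the silencing machinery acts on these genes was not tested. Reads from the repeats themselves are not part of a gene table and were not analysed here. Of 30 genes derived from retroelements, 19 were tested, 7 rose and 2 fell, with a median log2 fold change of 0.18. This is 47.4% called, beside 37.7% of all tested genes. The 11 others were below the minimum mean. *PEG10*, a gene with retroviral gag and pol ancestry, rose from 2344 ± 253 to 3840 ± 186 (SD, n = 3 each; log2 fold change 0.72, SE 0.08, adjusted p = 0.000126 with limma), whereas *PNMA8A* (-0.47) and *RTL6* (-0.42) fell.

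Of 465 tested genes with a ZNF symbol, 295 matched a KRAB-like amino acid pattern and 170 did not. The pattern misses some KRAB genes, such as *ZNF10*, *ZNF26*, *ZNF184* and *ZNF248*, so the 170 are not free of them. Among the KRAB-like genes 5 rose and 119 fell, which is 1.69% and 40.3%, beside 17.8% and 19.8% of all tested genes, and their median log2 fold change was -0.31. Among the others 22 rose and 35 fell, with a median of -0.09. Of the KRAB-like genes, 195 lie on chromosome 19, where 2 rose and 88 fell with a median of -0.40, and 100 lie on other chromosomes, where 3 rose and 31 fell with a median of -0.14. This division by chromosome was made after the values were seen. After local median centring 16 of the 295 KRAB-like genes rose and 61 fell, with a median of -0.08. Under that setting 30.9% of all tested genes were called in either direction, against 37.7% without it. Many KRAB-like genes lie side by side, so the neighbours used for centring include other KRAB-like genes. Centring therefore also subtracts a fall that they share, and it cannot tell a change of the family from one of the region.

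**Figure D5:**
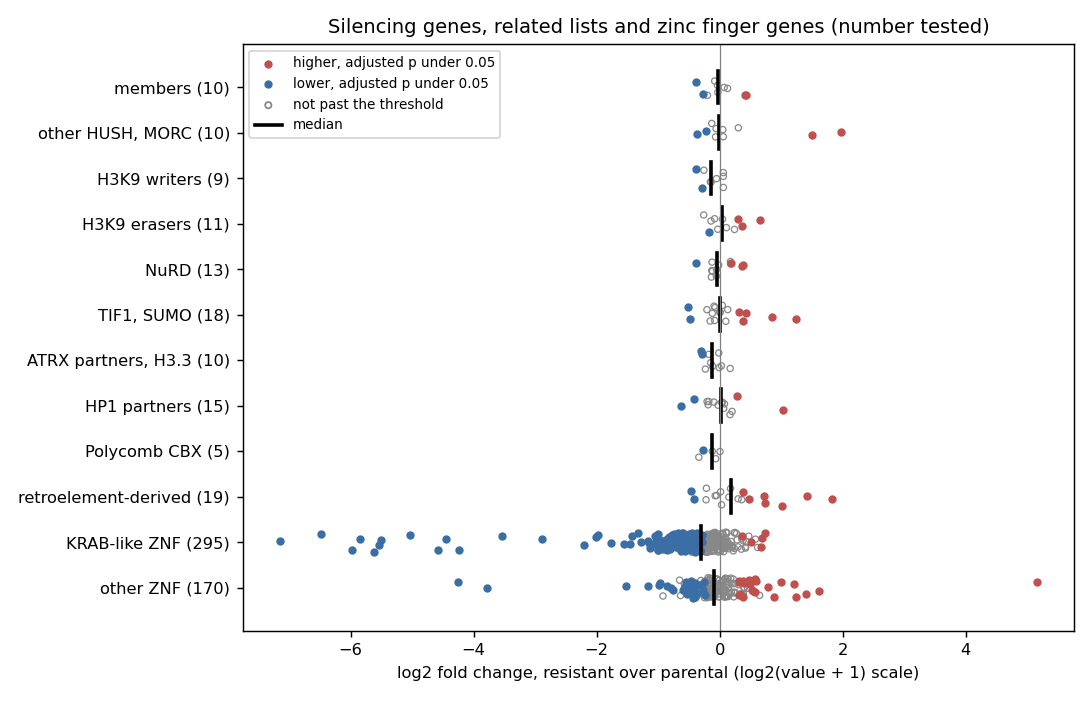
Log2 fold change, resistant over parental, of each tested gene in the 10 silencing genes, the related lists and the zinc finger genes, with the number tested in brackets, the median as a bar and filled points past the adjusted p of 0.05. Most KRAB-like zinc finger genes lie to the left of 0, with a median of -0.31, whereas the median of the silencing genes is -0.03.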

How the data were processed

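RNA-seq of 6 H526 libraries was used. The authors trimmed reads with Trimmomatic 0.38 and aligned and quantified them with RSEM 1.3.1 and STAR on GRCh38, and the deposited values are a DESeq2 1.30.0 normalized signal per gene and library, with no filter on low values. They are not counts, so the count test of the study was not used. Between 44.9% and 59.8% of values up to 20 reads were whole within 0.05 read, so whole reads were not recovered. The step between low values gave the depth, and 3 reads served as the detection limit, for counting error only.

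Of 62757 rows, 47 second copies of pseudoautosomal genes with identical values were dropped. Symbols, GRCh38 positions and transcript lengths were taken from Gencode v44, which matched 62639 of the 62710 genes left. The 16347 genes whose mean reached 10 went into limma 3.58.1 under R 4.3.3, on log2(value + 1), with group as the single factor, an intensity trend and p-values adjusted by Benjamini-Hochberg over all of them. Fold changes on this scale understate those of low genes. Single values got an exact two-sided permutation test over the 6 libraries. The limma step was tested on simulated data. Other steps used Python 3.11.15, numpy 2.4.6, pandas 2.3.3 and matplotlib 3.10.9. Zinc finger genes were called KRAB-like from translated Gencode transcripts, in place of the RefSeq proteins first planned.

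The members and lists were chosen with earlier results of these data known. Named were all members, up to 3 genes of each list with the smallest p, every gene of lists with 5 or fewer tested genes, head-to-head neighbours within 1000 bases, processed copies with a library above 10 and the 3 genes most like *TRIM28*. Some genes that this rule names are not reported here. *ZNF10*, *ZNF26*, *ZNF184* and *ZNF248* were named after their values were seen. *TASOR*, *DAXX*, *HDAC2*, the 5 ratios and the flanking genes of *TRIM28* were added after the values were seen. Settings changed one at a time were the pseudocount (0.1, 10), the filter (dropped, or a mean of 50), TMM or quantile scaling, a fit lacking the variance trend, local median centring and each library left out in turn, and for the HP1 shares no length correction and added processed copies. Zinc finger genes under these settings and windows of 20 and 100 neighbours were chosen after seeing the data.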

Additional observations from a re-analysis of the deposited data

How the results depend on the processing

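Over 14 alternatives the number of members called was 4 or 3, except that it was 2 after local median centring, and it lay between 3 and 4 when each library was left out. *MPHOSPH8* was called under all 14 (largest adjusted p 0.0159 with limma), and *TRIM28* under none of them (log2 fold change between -0.26 and -0.01). Besides the libraries named above, *CBX3* lost its call under quantile normalization (adjusted p = 0.0894 with limma) and without the variance trend (0.0991), and *ATRX* lost it after local median centring (0.0606). The sign turned for *CBX5* (0.10) and *CBX1* (-0.17) after local median centring. Under quantile normalization *SETDB1* was at 0.0099 and *MORC2* at 0.0056, and with each library left out they lay between -0.072 and 0.0033 (positive without resistant library 8) and between -0.055 and 0.0029 (positive without parental library 3), all on the log2 scale. The number of KRAB-like genes called lower was 61 after local median centring, against 119, and between 92 and 112 when each library was left out. That centring also subtracts a fall shared by KRAB-like genes that lie side by side. Calls among related machinery genes lay between 19 and 28, and calls over all genes between 4784 and 6228. The causes of these shifts were not tested. With a window of 20 genes the difference from neighbours was -0.67 for *CBX3*, 0.12 for *MPHOSPH8* (10 neighbours) and -0.20 for *MORC2*. With a window of 100 it was 0.31 for *ATRX*. No HP1 share passed the threshold under any of 8 alternatives, nor could it with 3 libraries per group. The paper calls the parental and resistant cells matched and describes RNA taken at 3 separate times. It does not say which libraries belong together. The groups share no replicate numbers in the labels, which do not tie a resistant library to a parental one. No pairs could therefore be set, and the fit was unpaired.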
